A study of Rattus norvegicus with 9 samples.

Results

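The epidermal growth factor receptor (EGFR) is a receptor tyrosine kinase that is switched on by a family of ligands made as membrane-anchored precursors and released by cell surface proteases. Its signal runs through the adaptor proteins, Ras and the kinase cascade that ends in ERK, and ERK in turn switches on genes whose products restrain the same pathway. Errfi1 (also known as Mig6) binds the kinase domain of EGFR directly, the Sprouty proteins block signalling between receptor and Ras, and the Spred proteins hold back Raf. In arteries, this pathway is known for its part in the growth, contraction and remodelling of smooth muscle. To follow it in ischemic vessels, 10 genes were taken by their symbols from the deposited count table of 37203 symbols: the ligands Hbegf, Areg and Ereg, the receptor Egfr, and the inhibitors Errfi1, Spry1, Spry2, Spry4, Spred1 and Spred2. All 10 were found, and 8 of them had enough counts to be tested, while Areg and Ereg did not.

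Transcripts were counted in the superior mesenteric artery (SMA), which feeds most of the small intestine, of Sprague-Dawley rats aged 8 weeks and weighing 220 to 240 g. There were 9 libraries: 3 from normal rats, 3 after 1 h of ischemia and 3 after 4 h of ischemia. Ischemia was a hemorrhage model, with blood let through a femoral artery catheter under pentobarbital and time counted from when the model was set up. The labels name no genetic change in any group, and whether normal rats had the same anaesthesia and catheter is not given in the sources used here. Each library was made from whole artery, so that a change in the number of cells of a type and a change in RNA per cell cannot be told apart.

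Library totals ran from 13114273 to 15504240 counts, and no library was a copy of another. Levels are given as CPM, counts scaled to a common library size by the TMM method, and 1 CPM rested on 12.1 to 17.9 counts in these libraries. Smooth muscle markers were abundant in every artery: the summed level of all 12 was 12567 to 55255 CPM in normal rats, 14491 to 52557 CPM at 1 h and 27229 to 76278 CPM at 4 h, with none at 0. Markers of sympathetic nerve and ganglion set some libraries apart. Their summed level (22 of 22 tested) was 59.5 to 783 CPM in normal rats, 1172 to 10923 CPM at 1 h and 72.3 to 10739 CPM at 4 h, and 5 of the 22 had no count in normal replicate 2, among them Dbh (dopamine beta-hydroxylase) and Slc6a2 (the noradrenaline transporter). The nerve score, the mean log2 CPM of these 22 genes, was above 7 in 3 libraries, which were replicates 1 and 3 at 1 h and replicate 3 at 4 h. Of the 12 marker lists for other cell types and for smooth muscle, the nerve list was the only 1 whose summed level did not overlap between 1 h and normal.

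Before the values, the start regions of Errfi1 and Areg are shown. In the RefSeq annotation of assembly GRCr8, 9 of the 10 genes had a window of 300 bases, from 250 before to 50 after the start of transcription, and Spry2 had an additional one, giving 10 windows. Errfi1 is printed because it held the largest difference of the tested genes. Areg is printed because it was counted in all 1 h arteries and some 4 h arteries and had no count in normal ones. Its counts, 0 to 9 per library, were too few for a test. The Errfi1 window lies at chr5:166606591-166606890 on the plus strand and the Areg window at chr14:17265592-17265891 on the minus strand. Both are read 5′ to 3′, and capitals mark matches to the motifs searched.
Errfi1: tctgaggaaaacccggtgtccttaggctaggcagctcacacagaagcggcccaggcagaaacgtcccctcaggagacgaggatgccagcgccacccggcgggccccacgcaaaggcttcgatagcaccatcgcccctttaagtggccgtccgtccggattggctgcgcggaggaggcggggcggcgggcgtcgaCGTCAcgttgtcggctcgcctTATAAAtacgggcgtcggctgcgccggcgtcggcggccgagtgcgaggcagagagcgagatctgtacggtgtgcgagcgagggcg
Areg: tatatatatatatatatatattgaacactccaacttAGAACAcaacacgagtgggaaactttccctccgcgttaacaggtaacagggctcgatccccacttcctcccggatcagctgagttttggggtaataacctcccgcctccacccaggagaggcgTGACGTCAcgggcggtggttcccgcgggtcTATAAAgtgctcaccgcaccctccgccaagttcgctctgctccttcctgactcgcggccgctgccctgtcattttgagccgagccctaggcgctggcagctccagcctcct
In Errfi1 the first capitals are CGTCA, the cAMP response element half-site TGACG read on the opposite strand, at -56 to -52 from the start, and the next are a TATA box (TATAAA) at -35 to -30. In Areg they are a glucocorticoid half-site (AGAACA) at -214 to -209, a complete cAMP response element (TGACGTCA, which contains the half-site on both strands) at -91 to -84, and a TATA box at -61 to -56. The half-site was present in 5 of the 10 windows (Errfi1, Hbegf, Areg, Spry2 and Spred2) and in 21.2% of 33469 windows of the same length. The complete element was in 1 of 10 windows against 1.83% of all, and the TATA box in 2 of 10 against 14.2%. The AP-1 site (TGANTCA, with any base at N), the CArG box and the NF-kB site were in 0 of the 10, with 7.33%, 1.64% and 7.51% over all windows, and the glucocorticoid half-site was in 1 of 10 against 20.7%. All motifs were searched on both strands, and a match is a run of letters, with no measurement of binding behind it.

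To see which of the genes differed in the early stage of ischemia, the 1 h arteries were compared with normal ones. Errfi1 and Spry4 stood 8.72-fold and 6.08-fold above normal, with no overlap between the libraries. Spred2 was also higher in each 1 h library than in each normal one, and the other 5 tested genes overlapped. Across all 15482 genes tested, edgeR's quasi-likelihood test gave 9 calls (0.0581%), a call being an adjusted p under 0.05 together with a fold change over 1.5. None of the 8 genes was among them (0 of 8). At an unadjusted p under 0.05 there were 2 of 8, both higher (Errfi1 and Spry4), where 16.7% of all genes passed and 7.98% passed in the higher direction. The groups did not overlap for 3 of 8, all higher, against 12.8% of all genes in that direction. DESeq2 called 2 of the 8 (Errfi1 and Spry4) and 702 genes in all, and limma voom called 0 of the 8 and 8 genes in all.

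In the late stage, 4 h against normal, edgeR called 14 genes (0.0904%), and again 0 of the 8. Errfi1 alone had an unadjusted p under 0.05, where 12.4% of all genes did, 5.07% in the higher direction. Errfi1 and Spry1 were higher without overlap (7.93% of all genes were) and Spry2 was lower without overlap (10.8% of all genes were). DESeq2 called 1 of the 8 (Errfi1) and 610 genes in all, and limma voom 0 of the 8 and 12 in all. Both comparisons use the same 3 normal libraries, so they are not independent of each other.

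Between the stages, 4 h against 1 h, edgeR called 0 genes (0%), with 400 genes (2.58%) at an unadjusted p under 0.05 and 0 calls by DESeq2. Spry2 was the 1 gene of the 8 with an unadjusted p under 0.05, lower at 4 h as were 1.25% of all genes. It was also the 1 gene whose groups did not overlap, where 3.04% of all genes were lower without overlap. With both ischemic groups averaged and compared with normal, edgeR called 66 genes (0.426%) and 0 of the 8, while Errfi1 and Spry4 had an unadjusted p under 0.05 (17.1% of all genes, 7.19% in the higher direction). Errfi1 was the 1 gene of the 8 that was higher in all 6 ischemic libraries than in any normal one, against 3.99% of all genes. With the 3 groups tested together, 6 genes were called (0.0388%) and 0 of the 8, and Errfi1, Spry2 and Spry4 had an unadjusted p under 0.05 (11.4% of all genes). For the average, DESeq2 called 2 of the 8 and 1025 genes in all, and limma voom 1 of the 8 and 123 in all. For the 3 groups together, DESeq2 called 1 of the 8 and 669 in all, and limma voom 0 of the 8 and 10 in all. The replicates are labelled as separate samples of a group, with 3 rats per group in the design text, and p-values measure the spread between these samples.

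**Figure D1:**
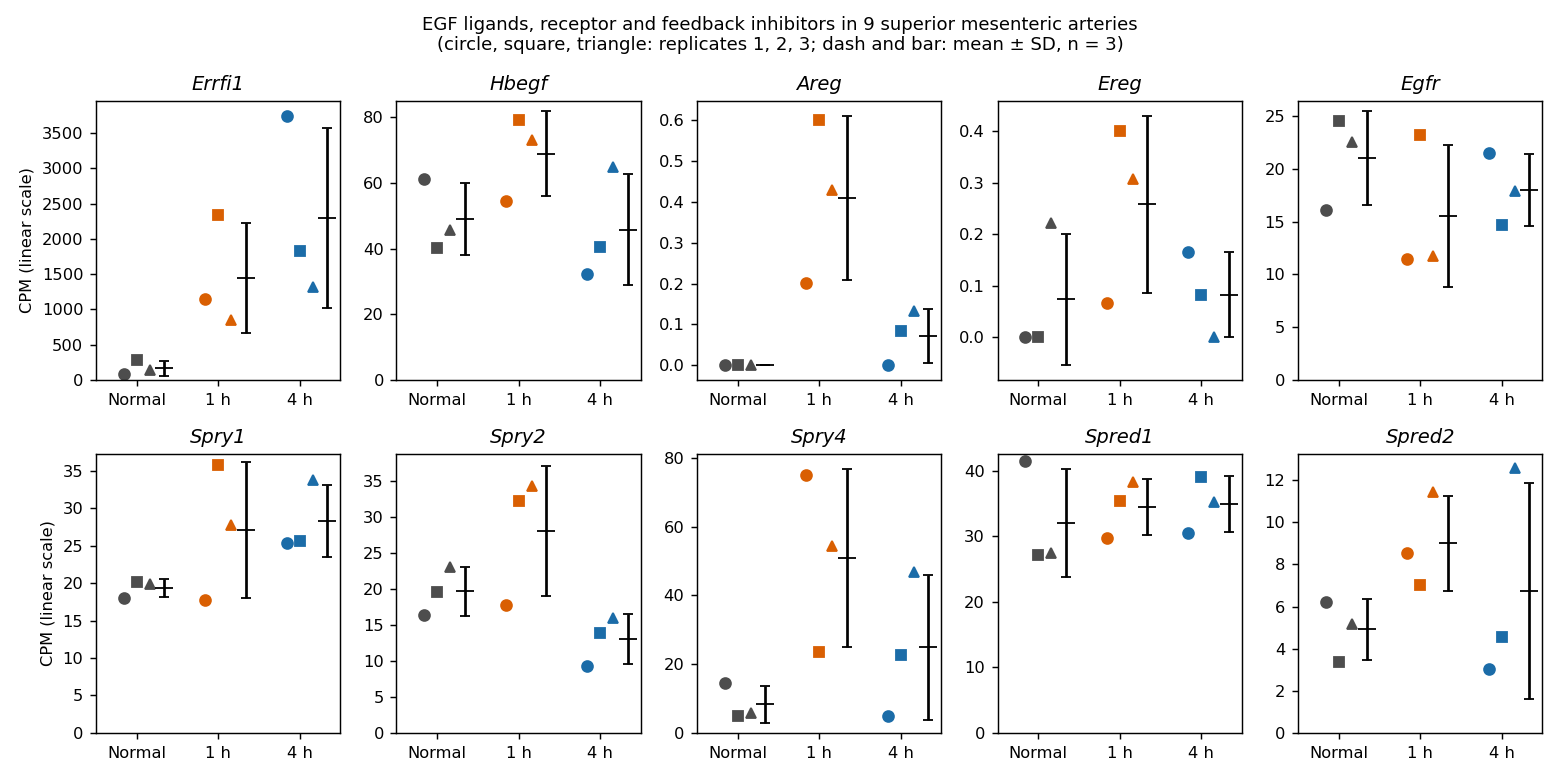
Level of each of the 10 genes in CPM on a linear axis, 1 panel per gene, in normal arteries and after 1 h and 4 h of ischemia. Symbols are single libraries, and the dash and bar beside them give mean ± SD (n = 3). All 6 ischemic Errfi1 points, from 858 to 3735 CPM, lie above the normal points, the highest of which is 281 CPM, and Spry2 at 4 h lies below both other groups.

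**Figure D2:**
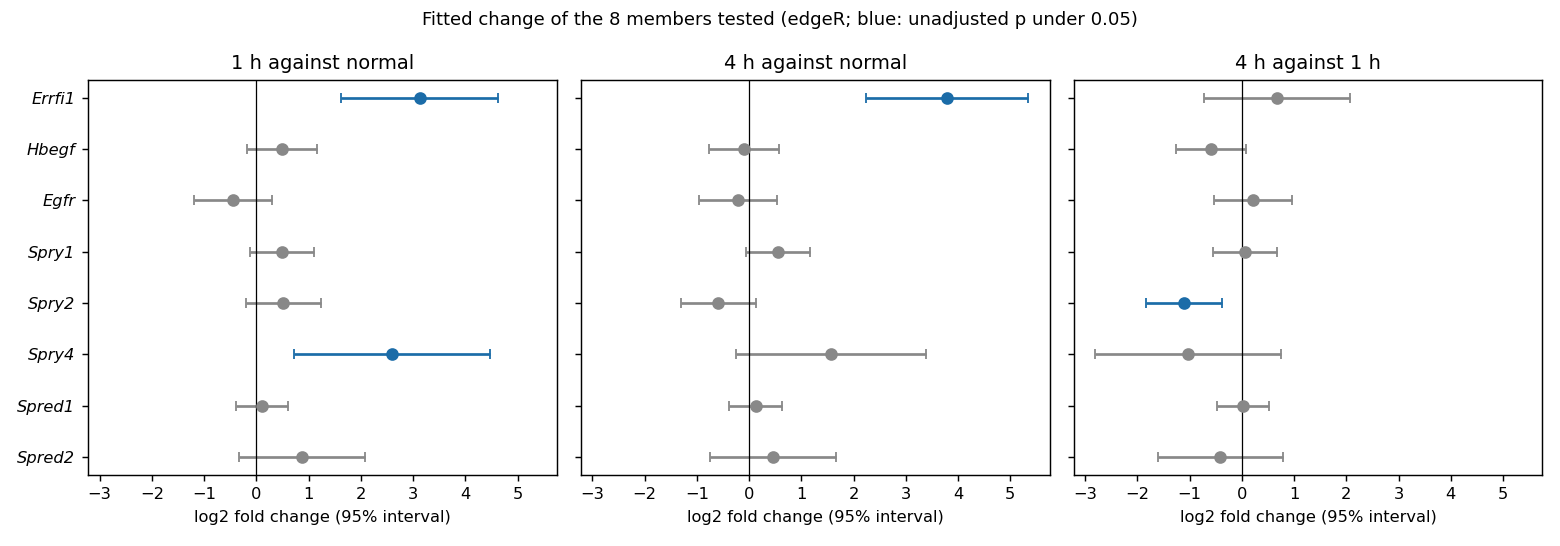
Fitted log2 fold change of the 8 tested genes with its 95% interval in the 3 comparisons, from edgeR. Blue marks an unadjusted p under 0.05, and grey marks the rest. Errfi1 lies at 3.12 at 1 h and 3.79 at 4 h against normal, Spry4 at 2.60 at 1 h, and Spry2 at -1.11 at 4 h against 1 h. The remaining intervals include 0.

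Of the inhibitors, Errfi1 had the largest separation. It was at 80.1, 281 and 137 CPM in normal replicates 1 to 3, at 1146, 2336 and 858 CPM at 1 h, and at 3735, 1833 and 1321 CPM at 4 h. All ischemic arteries lay above all normal ones, and the 1 h and 4 h arteries overlapped. The group means were 166 ± 103 CPM in normal arteries, 1446 ± 784 CPM at 1 h and 2296 ± 1272 CPM at 4 h (SD, n = 3 each). Behind these values were 1432 to 3850 counts per normal library and 13979 to 45222 per ischemic library. The log2 fold change was 3.12 at 1 h (SE 0.66, edgeR adjusted p = 0.168) and 3.79 at 4 h (SE 0.68, edgeR adjusted p = 0.0783). As folds these were 8.72 (95% interval 3.06 to 24.8) and 13.8 (4.71 to 40.7). Ordered by p among all 15482 genes, Errfi1 stood at place 120 at 1 h and 90 at 4 h. Averaged over both times it was 11.0-fold higher (log2 3.46, SE 0.63, edgeR adjusted p = 0.0641). From 1 h to 4 h the difference was 0.67 on the log2 scale (SE 0.61, 95% interval -0.73 to 2.06), within the spread of the libraries. DESeq2 gave adjusted p = 3.95e-05 at 1 h and 1.15e-07 at 4 h.

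Errfi1 was above normal in ischemic arteries with few nerve transcripts and in those with many, but not at the same level. It was at 858 to 1321 CPM in the 3 ischemic libraries of nerve score above 7. In the other ischemic libraries it was at 1833 to 3735 CPM. Their smooth muscle scores differed too, 9.29 to 10.3 in the former and 11.1 to 11.6 in the latter (mean log2 CPM). Pearson's r between Errfi1 log2 CPM and the nerve score was 0.01 over the 9 libraries, normal and ischemic together. With the smooth muscle score it was 0.42. These are descriptions of libraries that also differ in group and in tissue makeup. The nerve scores of the 1 h and normal arteries did not overlap (4.78 to 7.87 against -0.24 to 4.37). Nerve content and group therefore cannot be told apart at 1 h. A fit that took in the nerve score gave a log2 fold change of 4.12 at 1 h (SE 0.51, edgeR adjusted p = 0.0495) and 3.96 at 4 h (SE 0.44, adjusted p = 0.0138). With the smooth muscle score it was 3.30 (SE 0.34, edgeR adjusted p = 0.0252) and 3.42 (SE 0.36, adjusted p = 0.0191), so that Errfi1 was called under both covariates. Without the 3 libraries of highest nerve score, a choice made after the data were seen, it was 3.82 at 1 h (SE 0.75, edgeR adjusted p = 0.263) and 4.08 at 4 h (SE 0.68, adjusted p = 0.207). That leaves 1 library at 1 h, replicate 2, and 2 at 4 h, so the SE at 1 h comes from the spread of the other groups, and the lone library is assumed to vary as they do. Across all alternatives the adjusted p ran from 3.95e-05 to 0.489 at 1 h and from 1.15e-07 to 0.266 at 4 h. The covariate fits called more genes in all. The nerve covariate gave 15 at 1 h and 119 at 4 h, and the smooth muscle covariate 33 and 64, against 9 and 14 without a covariate.

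Of the 3 Sprouty genes in the set, Spry1 was at 18.0, 20.2 and 19.8 CPM in normal arteries, at 17.7, 35.9 and 27.8 CPM at 1 h, and at 25.4, 25.7 and 33.8 CPM at 4 h. Replicate 1 at 1 h was as low as the normal arteries, while the 4 h arteries were all above them. Against normal, the log2 fold change was 0.49 at 1 h (SE 0.27, edgeR adjusted p = 0.347) and 0.55 at 4 h (SE 0.27, edgeR adjusted p = 0.445). The normal arteries differed little, with a mean of 19.4 ± 1.17 CPM (SD, n = 3).

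Spry2 was the only tested gene of the 10 whose difference between the stages had an unadjusted p under 0.05. It was at 16.4, 19.6 and 23.1 CPM in normal arteries, at 17.8, 32.3 and 34.4 CPM at 1 h, and at 9.25, 13.9 and 16.03 CPM at 4 h. The 4 h arteries were the lowest, below all 1 h arteries and, by a narrow margin, below all normal ones, while the 1 h and normal groups overlapped through replicate 1 at 1 h. From 1 h to 4 h the log2 fold change was -1.11 (SE 0.32, 95% interval -1.83 to -0.38, unadjusted p = 0.00749, edgeR adjusted p = 0.856). It stood at place 17 of 15482 genes by p in a comparison that called 0 genes. Against normal the log2 fold change was 0.52 at 1 h (SE 0.31, edgeR adjusted p = 0.381) and -0.59 at 4 h (SE 0.31, edgeR adjusted p = 0.482). The difference between the stages lay between -1.47 and -0.92 in all alternatives, and its adjusted p between 0.140 and 1.

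Spry4 was at 14.5, 4.81 and 5.76 CPM in normal arteries, at 74.9, 23.5 and 54.3 CPM at 1 h, and at 5.04, 22.7 and 46.8 CPM at 4 h. All 1 h arteries were above all normal ones, but at 4 h replicate 1 was as low as normal. The group means were 8.35 ± 5.33, 50.9 ± 25.9 and 24.9 ± 21.0 CPM (SD, n = 3 each). The log2 fold change was 2.60 at 1 h (SE 0.82, edgeR adjusted p = 0.235, DESeq2 adjusted p = 0.0213) and 1.57 at 4 h (SE 0.79, edgeR adjusted p = 0.464).

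The 3 highest Spry4 values belonged to the 3 libraries of nerve score above 7, and r with the nerve score was 0.83 over the 9 libraries. In the fit with that score as a covariate, the 1 h log2 fold change was 1.41 (SE 0.66, edgeR adjusted p = 0.551) and that at 4 h 1.31 (SE 0.53, edgeR adjusted p = 0.272). Without those 3 libraries, with only replicate 2 left at 1 h, the values were 1.52 and 0.76, and without replicate 3 at 4 h alone the 4 h value was 0.73. Of the 12 marker lists, r with Spry4 was highest for neutrophil markers (0.93), which were near the limit of detection. Of these 10 genes 2 were tested and 1 had no count in any library, and their summed levels were 1.25 to 3.19 CPM in normal arteries, 2.34 to 6.82 CPM at 1 h and 0.991 to 4.88 CPM at 4 h. Adipocyte markers also moved with Spry4 (r = 0.89), with all 10 tested and summed levels of 456 to 2653 CPM in normal arteries, 1018 to 2412 CPM at 1 h and 403 to 1193 CPM at 4 h. Ucp1, which marks brown fat, had no count in any normal artery, and was at 85.0, 0.067 and 2.82 CPM at 1 h and at 0, 0 and 36.6 CPM at 4 h. The part of nerve, fat tissue and neutrophils in the Spry4 level was not tested further.

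**Figure D3:**
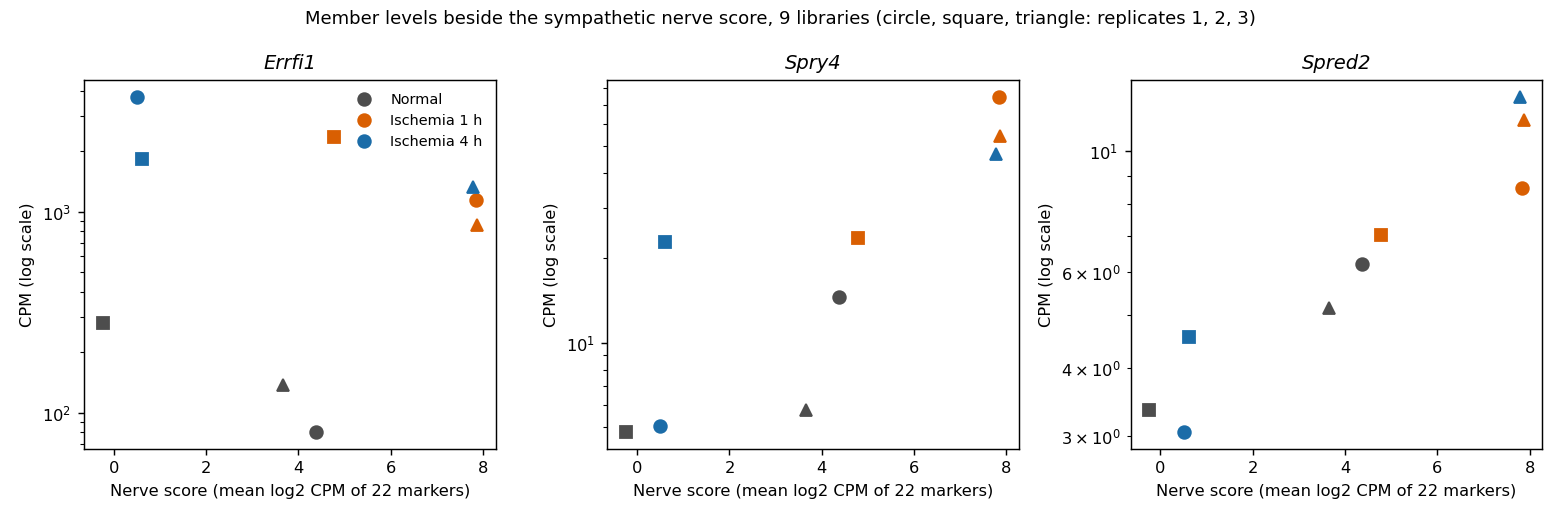
CPM of Errfi1, Spry4 and Spred2 on log axes against the nerve score of each library (mean log2 CPM of 22 sympathetic nerve and ganglion markers), with 9 points per panel coloured by group. The 3 libraries with a score above 7 hold the 3 highest values of Spry4 (46.8 to 74.9 CPM) and of Spred2 (8.55 to 12.6 CPM). Errfi1 is above normal in ischemic arteries at either end of the score. It is lower in those 3 libraries (858 to 1321 CPM) than in the other ischemic ones (1833 to 3735 CPM).

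Of the Spred genes, which encode membrane-bound inhibitors of Raf, Spred1 was at 41.6, 27.1 and 27.5 CPM in normal arteries, at 29.7, 35.5 and 38.2 CPM at 1 h, and at 30.5, 39.1 and 35.2 CPM at 4 h. The groups overlapped throughout, and the highest value was that of normal replicate 1. Schwann cell markers moved with Spred1 (r = 0.89 over the 9 libraries, all 10 tested and none at 0 in any library), and their summed level was also highest in normal replicate 1. It was 284 to 5137 CPM in normal arteries, 1373 to 2820 CPM at 1 h and 566 to 2567 CPM at 4 h, and its part in the Spred1 level was not tested. The 95% interval of the log2 fold change was -0.40 to 0.61 at 1 h and -0.38 to 0.63 at 4 h, so that a rise of more than 1.54-fold lay outside both.

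Spred2 was at 6.21, 3.35 and 5.16 CPM in normal arteries, at 8.55, 7.01 and 11.4 CPM at 1 h, and at 3.06, 4.56 and 12.6 CPM at 4 h. The 1 h arteries were all above normal, and at 4 h replicate 3 was the highest of all 9 and replicate 1 the lowest. Its log2 fold change was 0.87 at 1 h (SE 0.53, edgeR adjusted p = 0.383) and 0.46 at 4 h (SE 0.53, edgeR adjusted p = 0.741). Its r with the nerve score was 0.96 over the 9 libraries. Other scores moved with Spred2 as well: r was 0.87 for neutrophil, 0.83 for adipocyte and 0.72 for macrophage markers. For smooth muscle markers r was -0.67. In the fit with the nerve score the 1 h value of Spred2 was -0.02, and without replicate 3 the 4 h value was -0.37. As the nerve scores of the 1 h and normal arteries did not overlap, nerve content and group cannot be told apart at 1 h. The part of nerve and of the other tissues in the Spred2 level was not tested.

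Of the ligands, Hbegf had enough counts to be tested. Heparin-binding EGF-like growth factor, its product, is a mitogen of smooth muscle cells. Hbegf was at 61.2, 40.2 and 45.7 CPM in normal arteries, at 54.5, 79.3 and 73.1 CPM at 1 h, and at 32.2, 40.5 and 64.8 CPM at 4 h. The highest values were those of replicates 2 and 3 at 1 h, and all 3 groups overlapped. The log2 fold change was 0.49 at 1 h (SE 0.29, edgeR adjusted p = 0.377), -0.10 at 4 h (SE 0.29, edgeR adjusted p = 0.918) and -0.59 from 1 h to 4 h (SE 0.30, edgeR adjusted p = 0.856). Its r with the nerve score was 0.79, and with that score as a covariate the 1 h value was 0.16. The macrophage (r = 0.77), neutrophil (0.70), Schwann cell (0.64) and adipocyte (0.64) scores also moved with Hbegf. With the smooth muscle score r was -0.64. Nerve content and group cannot be told apart at 1 h, and the part of nerve and of the other tissues in the Hbegf level was not tested. Without replicate 3 at 4 h, Hbegf, Spry2, Spry4 and Spred2 all had an unadjusted p under 0.05 between the stages, as did 3295 genes in all.

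Areg and Ereg, the genes of amphiregulin and epiregulin, were near the limit of detection. Areg had counts of 0, 0 and 0 in the normal libraries, 3, 9 and 7 at 1 h, and 0, 1 and 2 at 4 h. Each 1 h library held more reads than any normal or 4 h library. The 19 counts at 1 h made 0.411 CPM over the group. That was 6.18-fold the limit that a count of 0 allows in the normal group (3 counts over the group, 0.0664 CPM). The figure takes in neither the counting error of the 19 counts nor the spread between rats, so it is not a lower bound. From 1 h to 4 h the ratio was 0.186, with an exact 95% interval of 0.0352 to 0.630 that covers counting error only. In an edgeR fit with no filter on low counts, Areg at 1 h had an unadjusted p of 0.00547 and an adjusted p of 0.333.

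Ereg had counts of 0, 0 and 3 in the normal libraries, 1, 6 and 5 at 1 h, and 2, 1 and 0 at 4 h. The groups overlapped. Over the groups there were 12 counts at 1 h against 3 in normal arteries, a ratio of 3.91 with an exact interval of 1.05 to 21.6 for counting error only. At this depth no difference between the rats could be read from it, and the same 3 counts were found at 4 h.

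The receptor itself, Egfr, was at 16.1, 24.5 and 22.5 CPM in normal arteries, at 11.5, 23.2 and 11.8 CPM at 1 h, and at 21.5, 14.7 and 17.9 CPM at 4 h. The lowest values were those of replicates 1 and 3 at 1 h, and the groups overlapped. On the log2 scale the fold change was -0.44 at 1 h (SE 0.33, 95% interval -1.19 to 0.31, edgeR adjusted p = 0.468) and -0.22 at 4 h (SE 0.33, 95% interval -0.97 to 0.52, edgeR adjusted p = 0.805). A level at 1 h below 0.440 times normal therefore lay outside the interval. Over the 9 libraries r was -0.87 with the adipocyte score, -0.72 with the neutrophil score, -0.60 with the lymphocyte score and -0.59 with the nerve score. It was 0.65 with the smooth muscle score and -0.79 with Spry4. Replicates 1 and 3 at 1 h, where Egfr was lowest, had the highest adipocyte scores of the 9 libraries (6.46 and 6.52, mean log2 CPM). By summed level of the same markers, normal replicate 1 was the highest (2653 CPM, against 2009 and 2412 CPM in those 2). Ucp1 had no count in that normal library, where Egfr was at 16.1 CPM. The part of these tissues in the Egfr level was not tested.

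Among themselves, the 8 tested genes had correlations from -0.79 to 0.87 over the 9 libraries. The closest pair was Spry4 and Spred2 (Pearson's r of log2 CPM 0.87), followed by Hbegf and Spred2 (0.84) and Hbegf and Spry2 (0.75). Errfi1 was closest to Spry1 (0.66) and had r of -0.06 with Hbegf and -0.09 with Egfr. All pairs share the same libraries, their groups and their tissue makeup, so these values are descriptions. Over 10435 other genes with at least 5 CPM on average, Errfi1 was most like Cdkn1a, a cyclin-dependent kinase inhibitor (r = 0.985), Gem, a small GTPase (0.980), and Adamts1, a secreted protease (0.977). Spry4 was most like Mpp6 (0.984), Pak1 (0.979) and Syngr1, a synaptic vesicle protein gene (0.975). Spred2 was most like Zfyve9 (0.986), Zdhhc21 and Polr3g (both 0.982), and Hbegf was most like Pqlc1 (0.972), Usp27x (0.962) and Nfatc2 (0.959). For Egfr the nearest were Rnf19a (0.926), Nav2 (0.922) and Mob1a (0.909), for Spry1 Med13l (0.948), Zfp800 (0.941) and Gnai3 (0.936), for Spry2 Atp8b1 (0.945), Fbxo27 (0.942) and Steap2 (0.896), and for Spred1 Reln (0.960), Cyp2j3 (0.958) and Rassf4 (0.945).

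The rest of the pathway was then described from 7 lists, in the same fit. None of their genes was called by edgeR at 1 h or 4 h against normal, or between the stages. The median log2 fold change of all genes was -0.01 at 1 h and 0.03 at 4 h, and that of the 8 tested genes above was 0.50 and 0.29.

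Genes that ERK is known to switch on were the list with the most low p-values. At 1 h, 7 of 15 had an unadjusted p under 0.05, all higher (7.98% of all genes were), with a median log2 fold change of 1.14, and at 4 h it was 3 of 15, all higher (5.07% of all genes were), with a median of 0.64. The list was not uniform, with log2 fold changes of -0.39 to 4.39 at 1 h and -0.63 to 1.82 at 4 h. Dusp6 (0.92, SE 0.58), Etv5 (0.51, SE 0.57) and Etv4 (-0.10, SE 1.30) did not pass at 1 h, and were named after their values were seen. Egr1, an immediate early transcription factor, was at 13.0, 19.0 and 90.9 CPM in normal arteries, at 207, 401 and 204 CPM at 1 h, and at 173, 138 and 122 CPM at 4 h, so that all ischemic arteries were above all normal ones. Its log2 fold change was 2.72 at 1 h (SE 0.72, edgeR adjusted p = 0.211) and 1.82 at 4 h (SE 0.69, edgeR adjusted p = 0.338). Dusp5, a phosphatase of nuclear ERK, had a log2 fold change of 2.52 at 1 h (SE 0.57, edgeR adjusted p = 0.183) and 1.55 at 4 h (SE 0.55, edgeR adjusted p = 0.309), at levels of 0.67 to 8.35 CPM. Phlda1 was 1.71 higher on the log2 scale at 1 h (SE 0.47, edgeR adjusted p = 0.218), and Ier3 was 1.14 higher at 1 h (SE 0.44, edgeR adjusted p = 0.284) and 1.55 higher at 4 h (SE 0.45, edgeR adjusted p = 0.215). The smooth muscle covariate led edgeR to call Ier3 at both times (adjusted p = 0.0252 and 0.0201), and DESeq2 called it at 4 h alone (adjusted p = 0.0304).

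In the adaptor, Ras and ERK cascade, 5 of 19 had an unadjusted p under 0.05 at 1 h and 2 of 19 at 4 h, all higher (7.98% and 5.07% of all genes were), with median log2 fold changes of 0.26 and 0.19. Gab2, a docking protein, was 0.51 and 0.52 higher on the log2 scale (SE 0.17 each) without overlap at either time, and Braf, a Raf kinase, was 0.42 and 0.28 higher (SE 0.14 each), also without overlap. Shc1, an adaptor (0.56, SE 0.23), and Map2k1, a kinase that activates ERK (0.94, SE 0.35), also had an unadjusted p under 0.05 at 1 h and were named after their values were seen.

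Of the other receptor and Ras feedback genes, 4 of 18 passed an unadjusted p of 0.05 in the higher direction at 1 h and 1 in the lower, and at 4 h the counts were 0 and 1, with medians of 0.34 and 0.11. Over all genes, 7.98% were higher and 8.67% lower at 1 h, and 5.07% and 7.35% at 4 h, so that 1 of 18 in the lower direction is no more than the general share. The tyrosine phosphatases Ptpn1 and Ptpn2, which act on receptor kinases and their signalling partners, had log2 fold changes of 0.98 (SE 0.31, edgeR adjusted p = 0.238) and 1.16 (SE 0.40, edgeR adjusted p = 0.260) at 1 h. Spred3, the remaining Spred gene, was at 16.1, 23.7 and 15.9 CPM in normal arteries, at 24.0, 49.2 and 37.9 CPM at 1 h, and at 14.5, 14.5 and 27.2 CPM at 4 h. It was above normal in each 1 h artery, and the 4 h arteries overlapped the normal ones. From 1 h to 4 h its log2 fold change was -0.98 (SE 0.36, unadjusted p = 0.0244, edgeR adjusted p = 0.856). At 4 h the lower gene was Socs5 (-0.44, SE 0.18, edgeR adjusted p = 0.372). Cblb (0.64, SE 0.24) and Lrig3 (-0.48, SE 0.20), the other genes at 1 h, were named after their values were seen.

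The other EGF family ligands had high median log2 fold changes, 2.20 at 1 h and 1.63 at 4 h, but 0 of 7 had an unadjusted p under 0.05 at either time, and Egf was not tested. Both medians are the values of Epgn, which was at 0 to 1.32 CPM. Btc, Nrg2, Nrg3 and Nrg4 were also low, with means of 0.596 to 1.38 CPM over all libraries. These medians therefore rest on genes with few counts. Tgfa, named as the gene of that list with the highest mean CPM, was at 53.6, 25.1 and 36.7 CPM in normal arteries, 6.15, 27.0 and 13.4 CPM at 1 h and 4.79, 17.6 and 28.6 CPM at 4 h. The groups overlapped, with log2 fold changes of -1.31 (SE 0.70) and -1.18 (SE 0.70). Nrg1, named after its values were seen, was at 14.4, 15.1 and 14.3 CPM in the 3 libraries of highest nerve score and at 0.165 to 1.87 CPM in the other 6. Of the other ErbB receptors 0 of 2 had an unadjusted p under 0.05 at either time (medians -0.46 and -0.74), and Erbb4 was not tested. Erbb3 ranged from 8.38 to 336 CPM, with the lowest and the highest value both in normal arteries.

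Ligand shedding genes gave 0 of 8 at an unadjusted p under 0.05 at 1 h and 4 h, with medians of -0.00 and 0.04, and Timp3, named for its mean CPM, an inhibitor of the shedding proteases, had log2 fold changes of 0.75 (SE 0.44) and 0.58 (SE 0.44). Other growth factor receptor kinases gave 0 of 13 at 1 h and 1 of 13, lower, at 4 h, with medians of -0.14 and -0.03, and Fgfr4 was not tested. That count is near the 7.35% of all genes that were lower at 4 h. The 1 was Met, the receptor of hepatocyte growth factor, at 14.7, 8.82 and 15.0 CPM in normal arteries and 1.24, 4.47 and 6.40 CPM at 4 h. All 4 h values were below all normal ones, with a log2 fold change of -1.66 (SE 0.54, edgeR adjusted p = 0.269).

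**Figure D4:**
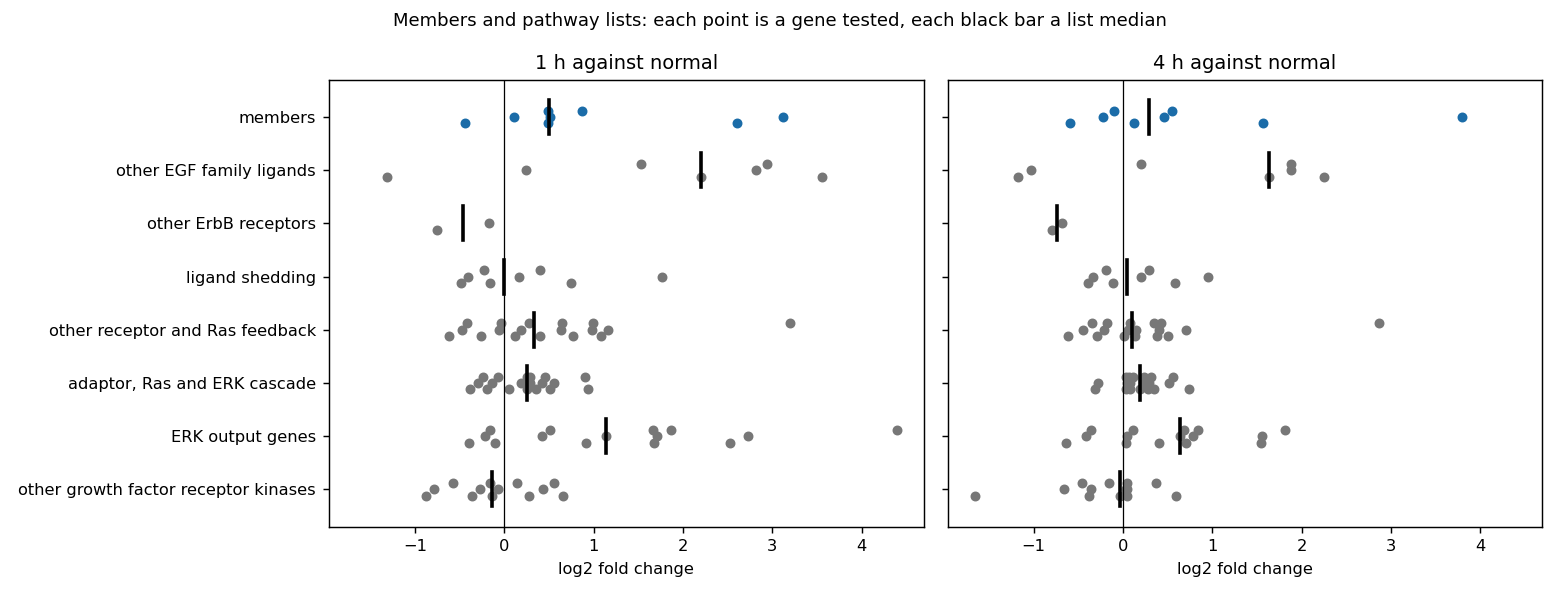
Fitted log2 fold change of each tested gene of the set and of the 7 pathway lists, at 1 h and 4 h against normal. Points are genes, and black bars are list medians. The ERK output list has its median at 1.14 at 1 h and 0.64 at 4 h, and the cascade list at 0.26 and 0.19.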

How the data were processed

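RNA of 9 rat SMAs was extracted with Trizol and sequenced on an Illumina HiSeq X. The authors deposited raw counts per gene symbol for 37203 symbols. The submitters' processing notes name HISAT2 without a version, and the study's methods also describe microarrays. The counting program, genome build, annotation and use of strand are not given in the sources used here. Groups were taken from the titles, and 0 columns belonged to no sample.

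Counts were analysed in R 4.3.3 with edgeR 4.0.16 (filterByExpr, TMM, quasi-likelihood F-test, all 9 libraries, group as the only term). Adjustment was by Benjamini and Hochberg over the 15482 genes tested, and a call needed an adjusted p under 0.05 and a fold change over 1.5, the thresholds of the study. Library totals were 13114273 to 15504240 counts, so genes near 1 CPM carry a large counting error. Log2 CPM for scores and correlations used a prior count of 2. The fit was also run on simulated counts with a known fold change in some genes. Those counts held no differences in tissue makeup between libraries, so they cannot show how the fit deals with such differences.

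The 10 genes, the 7 pathway lists and the 12 marker lists were chosen with earlier results of these data known. All 10 genes are named. From each list, the genes called and up to 3 genes with the smallest unadjusted p under 0.05 at 1 h and at 4 h are named, or else the most abundant gene, except 1 gene that is not reported here. For each tested gene, the 3 genes of highest Pearson's r are named, among characterised genes of at least 5 CPM. Alternatives covered scaling, filters, the fold threshold, limma voom (limma 3.58.1), DESeq2 1.42.0, covariates, the groups fitted, a replicate block and each library left out. No transcript lengths were used, so levels are not compared between genes.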

Additional observations from a re-analysis of the deposited data

How the results depend on the processing

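Of the 24 log2 fold changes followed (8 genes, 3 comparisons), 458 of 480 alternative values kept their sign and 22, in 11 fold changes, did not. The count of genes called was 0 of 8 in each of the 5 comparisons and 0 whichever library was left out. It became 1 with the nerve covariate and 1 with the smooth muscle covariate at 1 h, at 4 h, for both times averaged and for the 3 groups together, always Errfi1. Calls over all genes rose too. In the same order, the nerve covariate gave 15, 119, 126 and 27 and the smooth muscle covariate 33, 64, 323 and 33. Without a covariate there were 9, 14, 66 and 6. DESeq2 called 2 of the 8 at 1 h, 1 at 4 h, 2 for the average and 1 for the 3 groups together, with 702, 610, 1025 and 669 genes in all. The stricter filter and limma voom called 1 each for the average, with 117 and 123 genes in all. The cause was not tested.

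Some fold changes turned their sign. At 1 h against normal, Egfr was 0.15 without the 3 libraries of highest nerve score, which leaves only replicate 2 at 1 h, Spred2 -0.023 with the nerve covariate, and Spred1 -0.0022 to 0.34 with 1 library left out. At 4 h against normal, Hbegf was 0.011 with the smooth muscle covariate and -0.43 to 0.093 with 1 library left out, Spred1 -0.072 with library size as the only scaling, and Spred2 -0.34 without those 3 libraries and -0.37 to 0.78 with 1 left out. At 4 h against 1 h, the nerve covariate gave Errfi1 -0.15 and Spred2 0.20. Without the 3 libraries, which sets 2 libraries at 4 h against that 1, Egfr was -0.36, Spry1 -0.48 and Spred1 -0.021. With library size only, Spry1 was -0.11 and Spred1 -0.19. Spred1 was -0.0026 under the stricter filter and -0.011 when only the groups compared were fitted. With 1 library left out Spry1 ran from -0.17 to 0.32 and Spred1 from -0.075 to 0.13. Scaling by library size alone moved the median of all genes from 0.03 to -0.15 at 4 h against normal and from -0.04 to -0.24 at 4 h against 1 h.

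Same-numbered libraries of different groups did not all deviate together: 4 of 9 pairs had a correlation over 0.1, and the range was -0.65 to 0.66. They were the 3 pairs of replicate 2 and, with the highest value, replicate 3 at 1 h and at 4 h. By counts, that last pair was also the most alike of all pairs of libraries, with a chi-square per degree of freedom of 29.9. The closest pair within a group, replicates 1 and 2 at 4 h, had 52.9. Not every library correlated best with its own number. The labels do not say what a number shares, and the libraries were treated as unpaired. With a replicate block the count of genes called was 0 in all 5 comparisons, and Errfi1 was at 3.08 at 1 h and 3.87 at 4 h.

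With 3 libraries a group, DESeq2 called 702 genes at 1 h where edgeR called 9, and 610 at 4 h where edgeR called 14. Errfi1 ran from 2.59 to 4.12 at 1 h and from 3.23 to 4.40 at 4 h over all alternatives. Areg and Ereg had too few counts for a test.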
